A study of Homo sapiens with 4 samples.

Results

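The genes described here encode proteins of the centrosome and of the poles of the mitotic spindle. They were chosen by name, with earlier results of these data known. The set takes every protein-coding gene whose symbol begins with CEP or TUBGCP and a number, 38 and 5 genes, and adds ASPM, PCNT, AKAP9, CDK5RAP2, NIN, PCM1, PLK4 and NEDD1. This gave 51 genes of the 58884 in the table, and 49 of them had a mean of at least 1 TPM (transcripts in each 1000000, a level corrected for how long a gene is and how deep its library was) over the 4 libraries. CEP126 and CEP295NL lay under that level. Another 8 entries share a CEP symbol but are pseudogenes or noncoding RNAs and were left out, the highest at 1.19 TPM. Reads that CEP170, CEP164, CEP19 and CEP57L1 share with their pseudogenes could not be split, so those values are uncertain to that extent.

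A centrosome is a pair of centrioles, short barrels of microtubules, set in a cloud of pericentriolar material. Gamma-tubulin ring complexes in that cloud start new microtubules, so the centrosome shapes the interphase network and, once duplicated, forms the spindle poles. Its older centriole carries appendages, can dock at the cell surface and becomes the base of a primary cilium, a structure that follicular cells of the thyroid carry. Extra or misshapen centrosomes are common in carcinomas.

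TPC-1 and B-CPAP are long-established cell lines grown from papillary thyroid carcinomas, the most common thyroid cancer. Each was kept at 37 °C or exposed to 40 °C, and its RNA was sequenced to ask how heat alters its transcripts. The 4 groups held 1 library each, and nothing in the labels speaks of separate cultures. The labels state the exposure as 15 min, as 20 min and as 24 h in different places, so its length is not known here. RNeasy Plus served to take RNA, and TruSeq RNA Library Prep Kit v2, which does not mark strand, to make the libraries.

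Estimated depth was 20704722 to 24466576 reads, and the mitochondrially encoded share of TPM in TPC-1 was 16.8% (37 °C) and 19.9% (40 °C), that in B-CPAP 22.01% and 23.9%. Of 9 thyroid markers, PAX8 stood at 98.9 to 284 TPM in the 4 libraries and FOXE1 at 5.946 to 9.695 TPM, NKX2-1 was listed above 0 in B-CPAP alone, and SLC5A5 was at 0 in all 4. Of 5 leukocyte markers, 0 reached 1 TPM. The summed level of 5 epithelial markers in TPC-1 was 452.5 TPM at the lower and 376 TPM at the higher temperature, and in B-CPAP 805 and 616.5 TPM. KRT8 (138.9 to 569.8 TPM) and KRT18 (183.5 to 283.1 TPM) made up nearly all of it. EPCAM stood at 0 to 1.99 TPM, KRT19 at 0.06 to 1.42 TPM and CDH1 at 0 to 0.04 TPM. The 6 fibroblast markers summed to 9.13 and 9.56 TPM in TPC-1, against 38.04 and 46.7 TPM in B-CPAP. The part of any of these markers in the results was not tested.

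Together the 51 genes summed to 749.96 TPM in the TPC-1 library at 37 °C and 803.16 TPM in that at 40 °C. The B-CPAP sums were 579.12 and 728.41 TPM. B-CPAP at 37 °C thus had the lowest sum of the 4 libraries. That library held the lowest value for 30 of the 49 genes, against 35.3% of all 11824 tested protein-coding genes. With 1 library per group, a low 37 °C library and a high 40 °C library cannot be told apart.

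**Figure D1:**
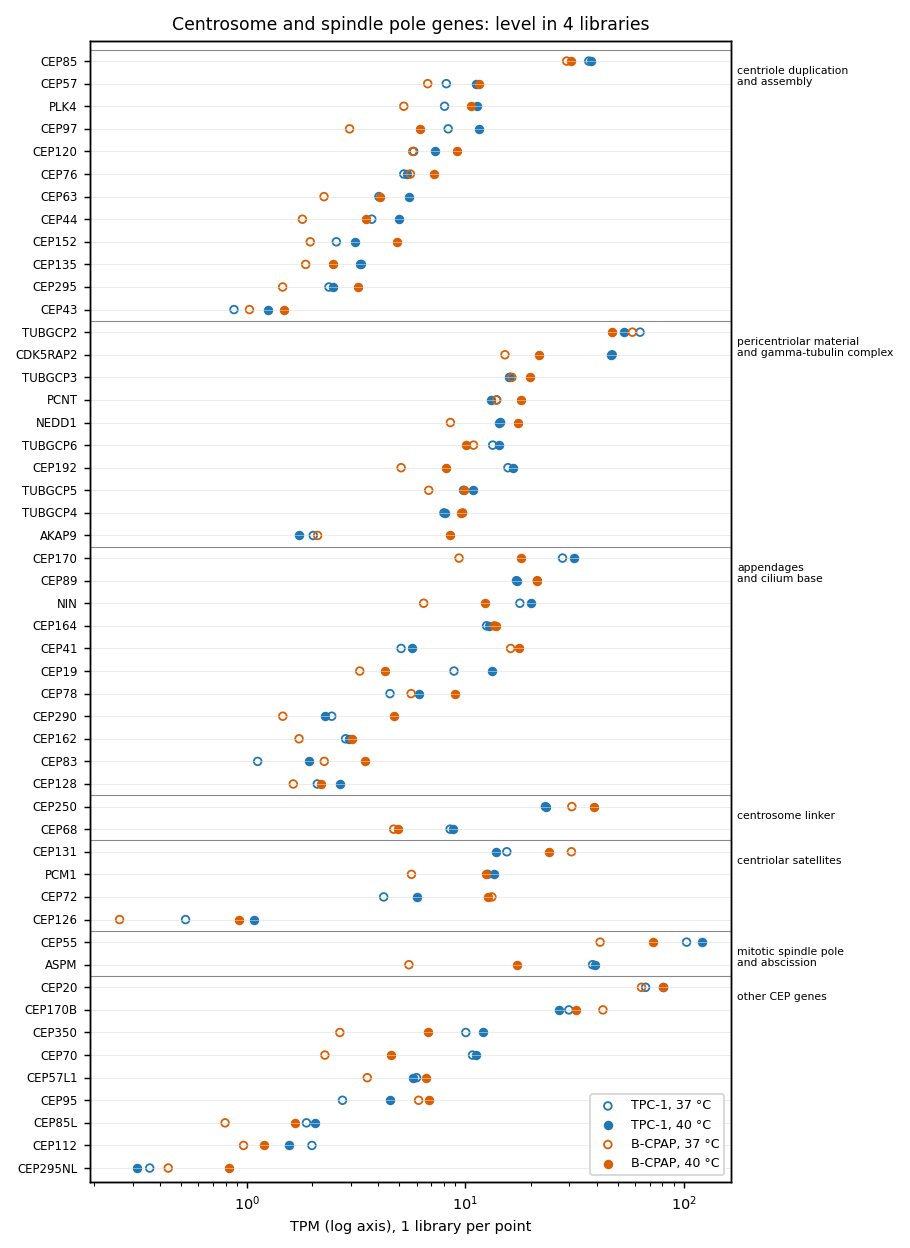
Level of 50 of the 51 centrosome and spindle pole genes in TPM (log axis), ordered by role and then by mean level; open points are 37 °C, filled points 40 °C, blue TPC-1 and orange B-CPAP, with 1 library per point. In B-CPAP most filled points lie to the right of the open ones, while in TPC-1 many pairs overlap.

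Differences between temperatures are given as log2(TPM + 1) at 40 °C minus 37 °C, a scale that understates changes of low genes, or as plain TPM ratios with a 95% counting interval (Clopper-Pearson, from estimated reads). The interval covers counting error between 2 libraries only, and no difference within a line has a replicate check or a p-value. In B-CPAP, 43 of the 49 genes were higher at 40 °C, against 58.6% of tested protein-coding genes, and the median difference was 0.47, against 0.10 for those genes. The interval lay above a ratio of 1 for 35 genes (background 42.9%) and below it for 3 genes, CEP131, CEP170B and TUBGCP2 (background 26.2%). A 2-fold difference was reached by 5 genes, AKAP9, ASPM, CEP290, CEP350 and PCM1, against 1.13% of protein-coding genes, and 0 were 2-fold lower.

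In TPC-1, 36 of the 49 genes were higher at 40 °C (background 53.2%), with a median difference of 0.07 against 0.02. The interval lay above 1 for 17 genes (background 24.4%) and below 1 for 3, among them CEP170B and TUBGCP2 (background 19.6%). None of the 49 reached a 2-fold difference in TPC-1, where 0.0846% of protein-coding genes were 2-fold higher. For 21 of the 49 genes the B-CPAP interval lay wholly above that of TPC-1 (background 19.5%), and for 2, CEP170B and CEP95, wholly below it (background 7.93%). For 7 genes the lines differed in sign as well, with intervals that did not overlap (background 8.52%). The median of all tested genes' levels was itself 0.09 higher at 40 °C in TPC-1 and 0.185 higher in B-CPAP. Relative to those shifts 22 of 49 genes were higher in TPC-1, with a median of -0.024, and 35 of 49 in B-CPAP, with a median of 0.29. These are shifts of library medians. The median difference of single genes, over all tested genes, was smaller, 0.027 in TPC-1 and 0.089 in B-CPAP. Over both lines after such centring, the median difference was 0.19 for the 49 genes and -0.06 for all tested genes.

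**Figure D2:**
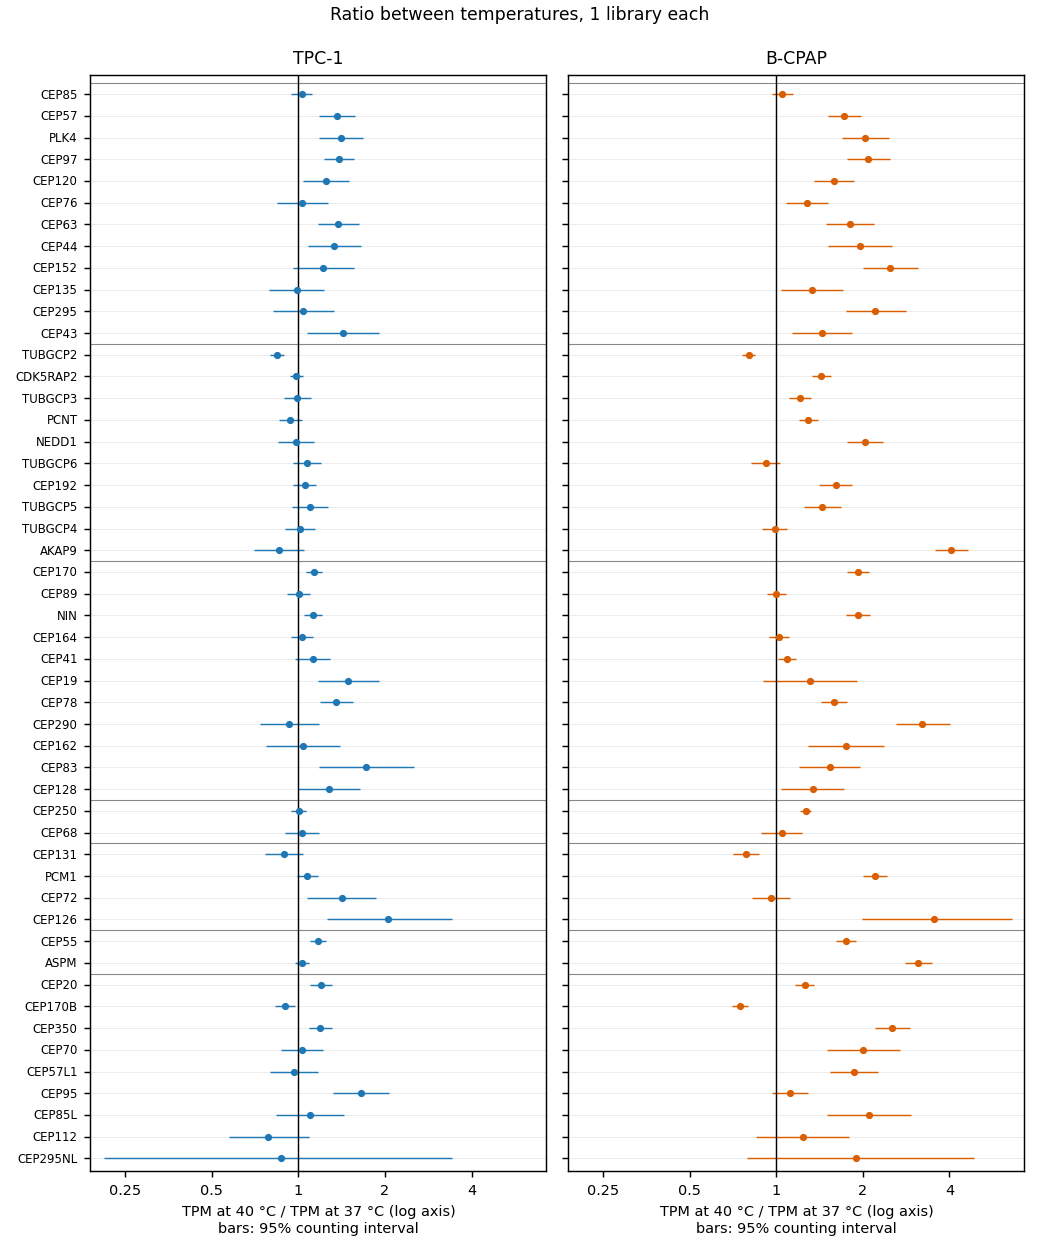
Ratio of TPM at 40 °C to TPM at 37 °C (log axis) for the same 50 genes in TPC-1 (left) and B-CPAP (right), in the same order of roles; bars are 95% counting intervals. In B-CPAP the intervals of 35 tested genes lie above 1, and in TPC-1 17 do.

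These differences followed GC content. The set is poorer in GC than the rest, with a median of 41.3% over exons against 48.2% for tested protein-coding genes, and its merged exons are longer, with medians of 8168 against 5116 bases. In B-CPAP the 20 genes under 40% GC had a median difference of 0.75, the 20 from 40 to 50% had 0.31 and the 9 from 50% had -0.05. The same classes of all tested protein-coding genes had 0.55, 0.26 and -0.19. All 20 low-GC genes had an interval above 1 in B-CPAP, as did 91.2% of protein-coding genes of that class. Across the 49 genes, which are not independent replicates and share their libraries, Spearman's rho between difference and GC content was -0.75 in B-CPAP and -0.25 in TPC-1, against -0.81 and -0.59 across 11819 genes. The medians of the 3 classes in TPC-1 were 0.09, 0.13 and 0.0027, against 0.21, 0.08 and -0.10 for all genes, so the low-GC members did not stand highest there.

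Sequence of 4 of the genes is shown to give an idea of these compositions. The following lines give 150 coding bases from the middle of an exon, read 5′ to 3′ on the coding strand of GRCh38 from GENCODE 29 transcripts, with G and C in capitals. CEP290 and CEP170B are the tested genes with the lowest and the highest GC content over all exons (34.1% and 66.2%), and AKAP9 and TUBGCP2 were added after their values were seen, as the largest difference in B-CPAP and the lowest in TPC-1. The CEP290 window (exon 30, chr12:88089185-88089334, minus strand) holds 42% GC and that of CEP170B (exon 12, chr14:104887052-104887201, plus strand) 70.67%. The AKAP9 window (exon 9, chr7:92001967-92002116, plus strand) holds 28% and that of TUBGCP2 (exon 7, chr10:133293591-133293740, minus strand) 66.67%.
CEP290: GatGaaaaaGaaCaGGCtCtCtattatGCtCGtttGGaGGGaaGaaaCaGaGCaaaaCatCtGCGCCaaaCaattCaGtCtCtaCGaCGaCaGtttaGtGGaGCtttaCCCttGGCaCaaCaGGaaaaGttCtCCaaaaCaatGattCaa
CEP170B: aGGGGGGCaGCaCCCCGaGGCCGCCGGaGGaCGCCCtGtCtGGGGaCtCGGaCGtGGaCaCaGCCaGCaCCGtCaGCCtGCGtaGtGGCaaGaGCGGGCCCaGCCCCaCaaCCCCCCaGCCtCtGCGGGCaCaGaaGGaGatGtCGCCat
AKAP9: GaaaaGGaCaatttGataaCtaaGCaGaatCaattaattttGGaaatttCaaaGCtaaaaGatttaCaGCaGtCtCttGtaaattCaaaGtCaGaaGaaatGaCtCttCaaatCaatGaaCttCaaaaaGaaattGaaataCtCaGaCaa
TUBGCP2: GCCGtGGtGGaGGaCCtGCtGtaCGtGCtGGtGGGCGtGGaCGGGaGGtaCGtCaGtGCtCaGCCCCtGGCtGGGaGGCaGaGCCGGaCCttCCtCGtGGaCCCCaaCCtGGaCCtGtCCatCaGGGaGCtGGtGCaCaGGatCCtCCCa
Runs of lower-case letters fill the AKAP9 window, whose gene stood 4.05 times as high at 40 °C in B-CPAP, while capitals fill those of CEP170B and TUBGCP2, at ratios of 0.749 and 0.804. The CEP290 window is richer in G and C than that gene's exons as a whole, and CEP290 stood 3.22 times as high. The windows illustrate 4 chosen genes, and nothing about the ratios rests on them.

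**Figure D3:**
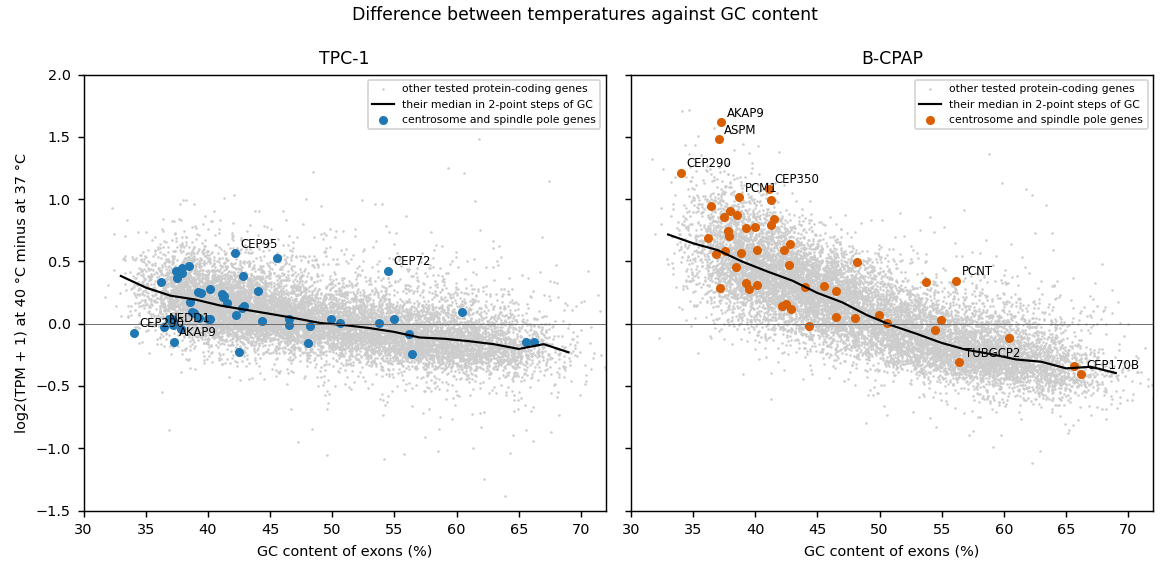
Difference in log2(TPM + 1) between 40 °C and 37 °C against exon GC content in % for TPC-1 (left) and B-CPAP (right); grey points are other tested protein-coding genes, the black line their median in steps of GC, and coloured points the centrosome and spindle pole genes (29 grey points over both panels lie outside the axes). In B-CPAP the coloured points fall from 1.62 for AKAP9 to -0.41 for CEP170B along the grey cloud, with several above it.

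Each gene was therefore set beside its 200 like genes, the tested protein-coding genes outside the set nearest to it in GC content and exon length, and the median of their differences was subtracted. In B-CPAP 33 of the 49 genes lay above their like genes, and the median excess was 0.11. By construction near 50% of protein-coding genes do so. In TPC-1 27 of 49 did (background 50.4%), with a median excess of 0.01. Above the 95th percentile of their like genes were 8 members in B-CPAP (background 5.39%), AKAP9, ASPM, CDK5RAP2, CEP152, CEP250, CEP290, CEP350 and PCNT, and 0 were below the 5th (background 5.23%). In TPC-1 4 lay above, CEP19, CEP63, CEP72 and CEP95 (background 5.51%), and 4 below, AKAP9, CEP112, CEP290 and CEP57L1 (background 5.5%). AKAP9 and CEP290 thus stood at opposite ends in the 2 lines.

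**Figure D4:**
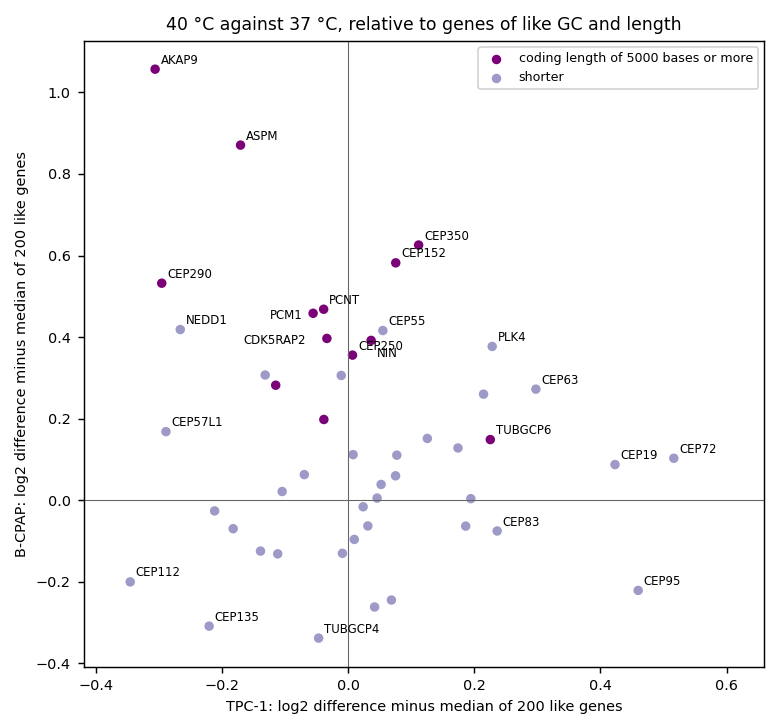
Difference between temperatures minus the median of the 200 like genes, TPC-1 on the horizontal axis and B-CPAP on the vertical axis (log2 units), 1 point per gene; dark points have a coding length of 5000 bases or more. All 13 dark points lie above 0 for B-CPAP, whereas 5 of them do for TPC-1.

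The excess in B-CPAP went with the length of the coding sequence, a split made after the values were seen. All 13 genes with at least 5000 coding bases lay above their like genes in B-CPAP, with a median excess of 0.46 and a range of 0.15 to 1.06, against 70.1% of the 521 protein-coding genes of that class, whose median excess was 0.11. In TPC-1 5 of the 13 did, with a median of -0.04, against 49.7%. The 36 shorter genes had medians of 0.01 in B-CPAP and 0.04 in TPC-1. When like genes were drawn by GC content and coding length instead, 13 of 13 were still above in B-CPAP, with a median of 0.33, against 56.2% of the 521. Spearman's rho between excess and coding length across the 49 genes was 0.48 in B-CPAP and -0.30 in TPC-1, against 0.13 and -0.06 over all. The rule that chose the set used gene names, but it was made with earlier results of these data known. The longest genes of the set were AKAP9 (11730 coding bases), ASPM (10431), PCNT (10008) and CEP350 (9351). AKAP9, ASPM, PCNT, NIN, PCM1 and CDK5RAP2, all of the long class, were named singly in that rule.

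**Figure D5:**
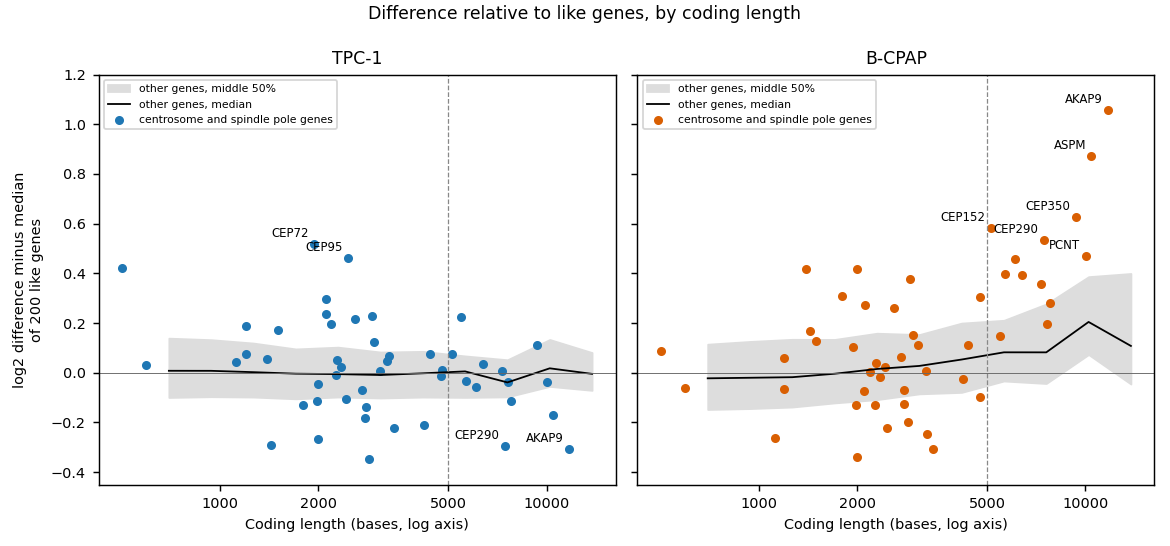
Difference between temperatures minus the median of like genes (log2 units) against coding length in bases (log axis), TPC-1 left and B-CPAP right; coloured points are the centrosome and spindle pole genes, and the grey band and black line are the middle 50% and median of other protein-coding genes. To the right of the dashed line at 5000 bases every coloured point in B-CPAP is above 0, from 0.15 to 1.06.

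Of the 12 genes of centriole duplication and assembly, 11, all but CEP135, were higher at 40 °C in TPC-1, with a median of 0.27 and 7 intervals above 1, and 12 in B-CPAP, with a median of 0.66 and 11 intervals above 1. Of all tested protein-coding genes, 53.2% were higher in TPC-1 and 58.6% in B-CPAP. Intervals above 1 were found for 24.4% of them in TPC-1 and 42.9% in B-CPAP. Over like genes the median excess came to 0.10 (TPC-1) and 0.14 (B-CPAP). Relative to the shift of library medians, 8 were higher in TPC-1 and 11 in B-CPAP. PLK4, the kinase that starts centriole duplication, stood at 8.05 TPM at 37 °C and 11.3 at 40 °C in TPC-1, and 5.24 and 10.7 TPM in B-CPAP (the first value of each pair is always that at 37 °C). Both lines thus had more PLK4 RNA at 40 °C, at ratios of 1.41 (1.18 to 1.68) and 2.04 (1.69 to 2.46). CEP97, which caps growing centrioles together with CCP110, stood at 8.36 TPM at 37 °C and 11.5 at 40 °C in TPC-1, and 2.96 and 6.18 TPM in B-CPAP. CEP57, which helps to build the scaffold around the centriole, stood at 8.196 TPM at 37 °C and 11.2 at 40 °C in TPC-1, and 6.74 and 11.6 TPM in B-CPAP. These 3 genes had intervals above 1 in each line.

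CEP152 and CEP63 form the ring on which PLK4 is placed. CEP152 stood at 2.57 TPM at 37 °C and 3.14 at 40 °C in TPC-1, and 1.95 and 4.87 TPM in B-CPAP, and CEP63 at 4.03 TPM at 37 °C and 5.55 at 40 °C in TPC-1, and 2.26 and 4.07 TPM in B-CPAP. The CEP63 ratios were 1.38 and 1.804, with intervals that overlapped (1.17 to 1.63 and 1.49 to 2.19). For CEP152 the TPC-1 interval, 0.956 to 1.56, included 1 and the B-CPAP interval was 2.003 to 3.12. Only 1 of the 200 like genes of CEP152 had a larger difference in B-CPAP, and its exons overlap a gene on the other strand over 4.09% of their length. CEP44, which acts when a new centriole turns into a centrosome, stood at 3.74 TPM at 37 °C and 4.99 at 40 °C in TPC-1, and 1.798 and 3.51 TPM in B-CPAP.

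CEP135, a protein of the cartwheel that sets the centriole's symmetry, stood at 3.35 TPM at 37 °C and 3.31 at 40 °C in TPC-1, and 1.86 and 2.48 TPM in B-CPAP. Its B-CPAP difference lay -0.31 from its like genes, among the 5 lowest of the set, although its interval was above 1 (1.04 to 1.71). CEP85, which binds the duplication factor STIL, was the highest of the group at 29.1 to 37.8 TPM and had ratios of 1.03 and 1.05, with intervals that included 1. The TPC-1 and B-CPAP ratios were 1.25 and 1.59 for CEP120, 1.03 and 1.28 for CEP76, 1.04 and 2.21 for CEP295, and 1.43 and 1.44 for CEP43. Exons of other genes overlap 13.9% of the exon bases of CEP295, 8.05% of those of CEP43 and 7.6% of those of CEP76.

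Of the 10 genes of the pericentriolar material and gamma-tubulin complexes, 4 were higher at 40 °C in TPC-1 (background 53.2%), with a median of -0.02. There 0 intervals lay above 1 (background 24.4%) and 1 below (background 19.6%). In B-CPAP 7 were higher (background 58.6%), with a median of 0.41 and 7 intervals above 1 (background 42.9%). The TPC-1 count of higher genes was 1 relative to the shift of library medians and 7 when levels were rescaled without mitochondrially encoded genes. That of B-CPAP was 7 and 8. For 6 of the 10 the B-CPAP interval lay wholly above that of TPC-1, as it did for 21 of all 49 genes and 19.5% of protein-coding genes, and whether this group differs from the others was not tested. Over like genes the median excess came to -0.04 (TPC-1) and 0.17 (B-CPAP). AKAP9 (ENSG00000127914, chromosome 7, 91940867 to 92110673, plus strand), a scaffold that anchors protein kinase A at the centrosome and the Golgi, stood at 2.02 TPM at 37 °C and 1.73 at 40 °C in TPC-1, and 2.11 and 8.55 TPM in B-CPAP. The 40 °C library of B-CPAP stood apart from the other 3. The ratio was 0.858 (0.702 to 1.05) in TPC-1 and 4.05 (3.55 to 4.63) in B-CPAP. Of its 200 like genes, 198 had a larger difference in TPC-1 and 0 in B-CPAP.

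PCNT, the large scaffold that organises the pericentriolar cloud, stood at 13.9 TPM at 37 °C and 13.1 at 40 °C in TPC-1, and 13.9 and 17.95 TPM in B-CPAP. Its GC content is 56.1%, and like genes had a median difference of -0.12 in B-CPAP, where PCNT had 0.35 and 4 of 200 like genes had a larger one. CDK5RAP2, which tethers and activates gamma-tubulin rings, stood at 47.1 TPM at 37 °C and 46.4 at 40 °C in TPC-1, and 15.2 and 21.8 TPM in B-CPAP. CEP192, which recruits mitotic kinases to the centrosome, stood at 15.7 TPM at 37 °C and 16.5 at 40 °C in TPC-1, and 5.09 and 8.200 TPM in B-CPAP. For CDK5RAP2 and CEP192 the TPC-1 intervals included 1 (0.934 to 1.04 and 0.961 to 1.15) and the B-CPAP values at both temperatures stayed below those of TPC-1.

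NEDD1, which brings gamma-tubulin rings to the centrosome, stood at 14.5 TPM at 37 °C and 14.2 at 40 °C in TPC-1, and 8.56 and 17.4 TPM in B-CPAP. Its ratios were 0.9801 (0.848 to 1.13) and 2.03 (1.76 to 2.35), and it was among the 5 lowest of the set against like genes in TPC-1, at -0.27.

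The gamma-tubulin complex genes themselves stood out less. TUBGCP2 and TUBGCP3 make the small complex with gamma-tubulin. TUBGCP2 stood at 63.2 TPM at 37 °C and 53.3 at 40 °C in TPC-1, and 58.3 and 46.9 TPM in B-CPAP, lower at 40 °C in both lines with ratios of 0.844 (0.7995 to 0.892) and 0.804 (0.763 to 0.847). TUBGCP3 stood at 16.1 TPM at 37 °C and 15.9 at 40 °C in TPC-1, and 16.4 and 19.8 TPM in B-CPAP. TUBGCP2 lies at 56.4% GC and was 0.14 and 0.12 below its like genes on the log2 scale, and 11.6% of its exon bases overlap exons of a gene on the other strand.

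TUBGCP4, TUBGCP5 and TUBGCP6 complete the ring. TUBGCP4 stood at 7.99 TPM at 37 °C and 8.104 at 40 °C in TPC-1, and 9.74 and 9.61 TPM in B-CPAP, a value uncertain because 34.3% of its exon bases overlap TP53BP1 on the other strand. TUBGCP5 stood at 9.83 TPM at 37 °C and 10.8 at 40 °C in TPC-1, and 6.81 and 9.84 TPM in B-CPAP. TUBGCP6 stood at 13.4 TPM at 37 °C and 14.3 at 40 °C in TPC-1, and 10.9 and 10.04 TPM in B-CPAP. Of the 5, TUBGCP3 and TUBGCP5 had intervals above 1 in B-CPAP, and the intervals of TUBGCP4 and TUBGCP6 included 1 in both lines.

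Genes of the appendages and of the base of the cilium were mixed. Of the 12, 10 were higher at 40 °C in TPC-1, with a median of 0.15 and 5 intervals above 1, and 12 in B-CPAP, with a median of 0.38 and 8 intervals above 1, yet the median excess over like genes was 0.04 and -0.0061. Relative to the shift of library medians 7 and 8 of the 12 were higher. CEP290 (ENSG00000198707, chromosome 12, 88049014 to 88142216, minus strand), which builds the gate at the base of the cilium, stood at 2.45 TPM at 37 °C and 2.28 at 40 °C in TPC-1, and 1.46 and 4.71 TPM in B-CPAP. It was lowest in B-CPAP at 37 °C and highest in B-CPAP at 40 °C, with a ratio of 3.22 (2.602 to 4.03), against 0.9298 (0.734 to 1.18) in TPC-1.

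NIN, which anchors microtubules at the subdistal appendages, stood at 17.8 TPM at 37 °C and 20.1 at 40 °C in TPC-1, and 6.45 and 12.4 TPM in B-CPAP. CEP170, which sits on the same appendages, stood at 27.9 TPM at 37 °C and 31.6 at 40 °C in TPC-1, and 9.37 and 18.03 TPM in B-CPAP. Both had intervals above 1 in each line, with ratios near 1.13 in TPC-1 and near 1.92 in B-CPAP. CEP128, another protein of these appendages, stood at 2.104 TPM at 37 °C and 2.68 at 40 °C in TPC-1, and 1.63 and 2.19 TPM in B-CPAP, and its B-CPAP difference lay -0.24 from its like genes.

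The distal appendages, which dock the centriole at the membrane, are built from CEP83, CEP89 and CEP164. CEP83 stood at 1.12 TPM at 37 °C and 1.92 at 40 °C in TPC-1, and 2.26 and 3.47 TPM in B-CPAP, higher at 40 °C in each line with ratios of 1.72 and 1.53. CEP89 and CEP164 had ratios of 1.002 and 1.03 in TPC-1 and 1.002 and 1.02 in B-CPAP, and all 4 intervals included 1.

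CEP19 stood at 8.89 TPM at 37 °C and 13.2 at 40 °C in TPC-1, and 3.29 and 4.31 TPM in B-CPAP. Its TPC-1 ratio was 1.49 (1.17 to 1.902), and in B-CPAP the interval, 0.896 to 1.904, included 1. CEP78 stood at 4.53 TPM at 37 °C and 6.14 at 40 °C in TPC-1, and 5.66 and 8.98 TPM in B-CPAP, higher at 40 °C in both lines. CEP41, which supports the modification of tubulin in cilia, stood at 5.09 TPM at 37 °C and 5.72 at 40 °C in TPC-1, and 16.1 and 17.6 TPM in B-CPAP, and its B-CPAP difference lay -0.26 from its like genes. The ratios of CEP162, which acts at the ciliary gate, were 1.04 in TPC-1 and 1.74 in B-CPAP.

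The linker that ties the centrioles together includes CEP250 and CEP68. CEP250 had a ratio of 1.002 (0.945 to 1.06) in TPC-1 and 1.27 (1.21 to 1.32) in B-CPAP, where like genes had a median difference of -0.02. CEP68 had ratios of 1.03 and 1.05, with intervals that included 1, and 8.78% of its exon bases overlap a gene on the other strand.

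Centriolar satellites are granules that carry proteins to the centrosome, and PCM1 is their scaffold. PCM1 stood at 12.7 TPM at 37 °C and 13.6 at 40 °C in TPC-1, and 5.68 and 12.5 TPM in B-CPAP, with a ratio of 1.07 (0.987 to 1.17) in TPC-1 and 2.203 (1.999 to 2.43) in B-CPAP. At 40 °C the B-CPAP value was close to both TPC-1 values, and at 37 °C it lay below them. CEP131 and CEP72, satellite proteins richer in GC, did not share this. CEP131 had ratios of 0.895 (0.768 to 1.04) and 0.786 (0.7098 to 0.869). Its log2 differences turned to 0.08 and 0.10 once adjusted for GC content.

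CEP72 stood at 4.24 TPM at 37 °C and 6.03 at 40 °C in TPC-1, and 13.3 and 12.7 TPM in B-CPAP. It had the largest excess over like genes in TPC-1, 0.52, with 0 of 200 like genes above it, while its B-CPAP interval, 0.825 to 1.12, included 1. Exons of TPPP on the other strand overlap 11% of its exon bases. CEP126, too low to be tested, was listed at 0.525 and 1.08 TPM in TPC-1 and 0.262 and 0.925 TPM in B-CPAP.

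ASPM and CEP55 act in mitosis, ASPM at the spindle poles and CEP55 in the final cut between daughter cells, and their RNA is known to be highest in dividing cells. ASPM (ENSG00000066279, chromosome 1, 197084128 to 197146694, minus strand) stood at 38.3 TPM at 37 °C and 39.3 at 40 °C in TPC-1, and 5.53 and 17.2 TPM in B-CPAP. The TPC-1 interval, 0.971 to 1.09, included 1, and in B-CPAP the ratio was 3.12 (2.798 to 3.48), with 2 of 200 like genes above it. CEP55 stood at 103 TPM at 37 °C and 121 at 40 °C in TPC-1, and 41.5 and 72.6 TPM in B-CPAP, at ratios of 1.17 and 1.75. Whether fewer cells held such RNA or each cell held less cannot be told apart in bulk samples.

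The remaining CEP genes have varied or less settled roles. CEP350, which stabilises microtubules at the centrosome, stood at 10.1 TPM at 37 °C and 12.02 at 40 °C in TPC-1, and 2.67 and 6.77 TPM in B-CPAP, and 6 of 200 like genes had a larger difference in B-CPAP. CEP70 stood at 10.8 TPM at 37 °C and 11.2 at 40 °C in TPC-1, and 2.28 and 4.57 TPM in B-CPAP. CEP95 stood at 2.74 TPM at 37 °C and 4.54 at 40 °C in TPC-1, and 6.12 and 6.84 TPM in B-CPAP. In CEP95 the order of the lines was turned, with a TPC-1 ratio of 1.66 (1.32 to 2.06) and a B-CPAP ratio of 1.12 (0.965 to 1.29), 0 of 200 like genes above it in TPC-1, and 8.36% of its exon bases overlapping a gene on the other strand, mainly DDX5.

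CEP170B (ENSG00000099814, chromosome 14, 104865280 to 104896770, plus strand), a relative of CEP170, was lower at 40 °C in both lines, with ratios of 0.8996 (0.8295 to 0.975) and 0.749 (0.702 to 0.799), and lay 0.01 and -0.10 from its like genes. Adjusted for GC content its log2 differences turned above 0, to 0.08 and 0.04. CEP57L1, a relative of CEP57, stood at 5.99 TPM at 37 °C and 5.79 at 40 °C in TPC-1, and 3.56 and 6.62 TPM in B-CPAP, and CEP112 at 1.99 TPM at 37 °C and 1.56 at 40 °C in TPC-1, and 0.967 and 1.19 TPM in B-CPAP. Both were among the lowest against like genes in TPC-1. CEP20 was the second highest gene of the set by mean level and had ratios of 1.196 and 1.25, those of CEP85L were 1.096 and 2.095, and CEP295NL, under the filter, was listed at 0.31 to 0.83 TPM.

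To pool the lines, limma was fitted to log2(TPM + 1) for temperature, with the line as a block. A gene's own spread in this fit, with 1 residual degree of freedom, is how far the 2 lines' differences depart from each other. limma pulls it towards the spread of other genes of like level, with 4.01 prior degrees of freedom. The SE and p-value of a gene thus rest mostly on other genes, and they hold no spread between cultures. At a Benjamini-Hochberg adjusted p of 0.05, limma called 0 of the 49 genes and 0 of 14912 tested genes (0%), while 13 of the 49 and 2905 of all had an unadjusted p under 0.05. Among those 13, TUBGCP2 had a lower fitted level at 40 °C and the others a higher one.

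When protein-coding genes alone were fitted, 11.4% of them were called, 7.44% as higher, and 8 of the 49 were called, all higher at 40 °C. In this fit PLK4 rose by 0.67 ± 0.18 (log2, SE; limma, adjusted p = 0.0243), CEP55 by 0.51 ± 0.11 (limma, adjusted p = 0.0118) and ASPM by 0.76 ± 0.21 (limma, adjusted p = 0.0268). They average TPC-1 and B-CPAP differences: 0.45 and 0.90 for PLK4, 0.23 and 0.79 for CEP55, 0.04 and 1.48 for ASPM. The ASPM value thus came almost wholly from B-CPAP. In the fit of all tested genes its SE was 0.34 (limma, adjusted p = 0.29). The other 5 were CEP57, CEP97, CEP152, CEP170 and CEP350, with limma adjusted p-values from 0.0318 to 0.0486. Adjusted for GC content as well, limma called 0 of the 49 and 2 of all 11819 genes. An unadjusted p under 0.05 was found for 5 of the 49 and 1493 of the 11819. Without the B-CPAP library at 37 °C, in a fit with no block, the fitted differences of ASPM, CEP55, CEP170 and CEP350 were below 0. That fit sets both 40 °C libraries against TPC-1 at 37 °C alone, so it also holds the gap between the lines. Within each line these genes were higher at 40 °C.

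Between the lines, B-CPAP was compared with TPC-1 over both temperatures by limma with temperature as a block. Of the 49 genes, 19 were called, against 62.7% of all tested genes. Lower in B-CPAP were 12 (background 32.8%) and higher 7 (background 29.9%). Among genes lower in B-CPAP, ASPM differed by -1.87 ± 0.34 (log2, SE; adjusted p = 0.0068), CEP70 by -1.49 ± 0.22 (log2, SE; adjusted p = 0.00346), CEP19 by -1.31 ± 0.16 (log2, SE; adjusted p = 0.00171) and CDK5RAP2 by -1.31 ± 0.16 (log2, SE; adjusted p = 0.0016), in limma. CEP192, CEP350, CEP170, CEP97, CEP55, NIN, CEP68 and CEP85 were also lower, by differences from -1.19 to -0.31.

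CEP41 was the gene most raised in B-CPAP, by 1.48 ± 0.14 (log2, SE; adjusted p = 0.000702), followed by CEP72, by 1.21 ± 0.18 (log2, SE; adjusted p = 0.00325), and CEP131, by 0.85 ± 0.12 (log2, SE; adjusted p = 0.00294), in limma. CEP95, CEP250 and CEP170B were higher by 0.37 to 0.71. The calls of CEP85, CEP95 and CEP170B were lost with no filter on level, and that of CEP85 also under 3 other scalings. Both mitotic genes and both called genes of the pericentriolar group, CDK5RAP2 and CEP192, were lower in B-CPAP, and both called satellite genes were higher. The gap for ASPM was 6.93-fold at 37 °C and 2.28-fold at 40 °C. With no block, 14 of the 49 were called, against 7469 of 14912 tested genes, and the median fitted difference of the 49 was -0.21. Leaving out 1 library as well leaves 1 library in a line, so only that median is given, and it also holds the difference between temperatures. It was -0.20 without TPC-1 at 37 °C and -0.10 without TPC-1 at 40 °C. Without B-CPAP at 37 °C it was 0.13, and without B-CPAP at 40 °C -0.45. Medians over all tested genes were -0.05 with all libraries, and -0.09, -0.01, 0.02 and -0.12 in that order.

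Other genes of these structures were counted in lists chosen by function. Their counts of genes higher at 40 °C are to be read against 53.2% of tested protein-coding genes in TPC-1 and 58.6% in B-CPAP. Their counts of calls between lines are to be read against the 62.7% of all tested genes that limma called, 32.8% as lower and 29.9% as higher in B-CPAP. Of 19 tested centriole genes outside the set, 11 were higher at 40 °C in TPC-1 (median 0.07) and 17 in B-CPAP (median 0.39), and limma called 0 between temperatures and 7 between lines (36.8%), 5 of them lower in B-CPAP (26.3%). SASS6, the cartwheel protein, stood at 3.25 TPM at 37 °C and 4.402 at 40 °C in TPC-1, and 2.09 and 5.83 TPM in B-CPAP, and CCP110, the partner of CEP97, at 4.58 TPM at 37 °C and 6.38 at 40 °C in TPC-1, and 2.999 and 6.47 TPM in B-CPAP. POC1A had B-CPAP values of 63.5 and 57.95 TPM and CNTROB 35.99 and 32.6 TPM.

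Of 13 gamma-tubulin ring and augmin genes, 8 were higher in TPC-1 and 7 in B-CPAP, with medians of 0.12 and 0.14, and 8 were called between lines (61.5%), 5 of them higher in B-CPAP (38.5%). HAUS6, a subunit of augmin, which branches microtubules in the spindle, stood at 11.8 TPM at 37 °C and 13.7 at 40 °C in TPC-1, and 13.9 and 28.9 TPM in B-CPAP. The small ring proteins MZT1 and MZT2B, at 32.0% and 67.3% GC, had B-CPAP ratios of 1.67 and 0.735, on opposite sides of 1. MZT2A, a near copy of MZT2B that can share its reads, had 0.727.

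Of 21 other appendage, linker and satellite genes, 14 were higher in TPC-1 (median 0.06) and 17 in B-CPAP (median 0.47), with 10 called between lines (47.6%), 5 each way (23.8%). ANKRD26, a protein of the distal appendages, stood at 2.33 TPM at 37 °C and 3.34 at 40 °C in TPC-1, and 2.24 and 6.75 TPM in B-CPAP, and MIB1, a ubiquitin ligase found at satellites, at 14.8 TPM at 37 °C and 18.8 at 40 °C in TPC-1, and 5.74 and 13.9 TPM in B-CPAP. LRRC45 and FBF1 had B-CPAP ratios of 0.719 and 0.659.

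Of 23 spindle pole and spindle assembly genes, 11 were higher in TPC-1 (median -0.0036) and 16 in B-CPAP (median 0.39), and 15 were called between lines (65.2%), 9 of them lower in B-CPAP (39.1%). CAMSAP2 and HMMR had B-CPAP ratios of 2.16 and 1.93. PLK1, the mitotic kinase, had a ratio of 0.798.

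Of 25 genes of G2 and M phase, 11 were higher in TPC-1 (median -0.01) and 19 in B-CPAP (median 0.49), and limma called 15 between lines (60%), 13 of them lower in B-CPAP (52%). KIF20B, a kinesin of cell division, and CENPF, a kinetochore protein, had B-CPAP ratios of 3.501 and 2.77, and CDC20 and CDCA3 of 0.775 and 0.861. These 4 are the extremes of the list, KIF20B at 34.1% GC and CDC20 at 57.6%. In B-CPAP 17 of the 25 intervals lay above 1 and 5 below it (backgrounds 42.9% and 26.2%). Above their like genes were 3 of the 25 in TPC-1 (background 50.4%) and 16 in B-CPAP (background 50%). The part of the cell cycle in the values of PLK4, ASPM and CEP55 was not tested.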

How the data were processed

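The deposited table holds TPM, scaled by the authors to gene length and library total, for 58884 gene IDs, and each of the 4 columns sums to 1000000. FastQC, MultiQC, Trimmomatic 0.38, featureCounts 2.0.0 and GRCh38 are named in the submitters' processing notes. Which aligner and gene annotation served is not given in the sources used here. Exon lengths, GC contents and coordinates came from GENCODE 29, which held 99.5% of the IDs. TPM multiplied by exon length gave estimated reads. They were whole within 0.02 of a read for 24 to 26 of the 51 genes in each library, so lengths differ from the authors' for the others, and their counting intervals (95%, counting error only) are approximate. Median half-widths were 0.20 log2 in each line.

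Values were tested as log2(TPM + 1), with a pseudocount of 1 and a mean TPM of at least 1, by limma 3.58.1 (R 4.3.3) with an intensity trend, two-sided, over all 14912 genes, of which 11824 were protein-coding. GC adjustment subtracted a loess curve (span 0.3) from each library. Python 3.11.15 did the rest. The set and the gene lists were chosen with earlier results of these data known. Full TPM was printed for the genes named in the rule, the TUBGCP genes, the 10 largest differences in each line and between lines, and the 5 farthest above and below like genes. In each list the 2 with the largest mean difference each way were named. Values of 1 member of the set and of some listed genes are not reported here by name. Protein sequences were not used here. The alternatives tried were other pseudocounts, filters, scalings, limma settings, GC adjustment, other like genes and leaving out each library.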

Additional observations from a re-analysis of the deposited data

Results flagged for a closer look

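For 7 genes the sign of the difference between temperatures was opposite in the 2 lines and the counting intervals did not overlap, against 8.52% of all tested protein-coding genes. The difference between the lines was not tested, since each group held 1 library. The log2 difference in B-CPAP exceeded that in TPC-1 by 1.76 for AKAP9, 1.29 for CEP290, 0.97 for NEDD1, 0.78 for CEP57L1, 0.52 for CDK5RAP2, 0.43 for PCNT and 0.27 for TUBGCP3. All 7 were higher at 40 °C in B-CPAP and lower in TPC-1, where every one of the 7 intervals included 1. In TPC-1 they stood at -0.31, -0.30, -0.27, -0.29, -0.03, -0.04 and -0.07 relative to their like genes, in that order. AKAP9 and CEP290 kept opposite signs in the 2 lines under all 4 other scalings. The TPC-1 difference turned above 0 when levels were rescaled without mitochondrially encoded genes for NEDD1 (0.02), CDK5RAP2 (0.03), TUBGCP3 (0.04) and CEP57L1 (0.0043), with quantile normalization for CDK5RAP2 (0.0063), and with GC adjustment for PCNT (0.05), while the B-CPAP difference of all 7 stayed above 0 under these scalings.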

How the results depend on the processing

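Limits are few libraries and a shared trend. With 1 library per group, a difference within a line rests on 2 libraries, and genes under about 3 TPM have wide counting intervals, as for CEP112 (0.573 to 1.09 in TPC-1). Between temperatures limma called 0 of the 49 genes as reported. It called 3 of 36 with a mean TPM of at least 5 (867 of all 10112 tested). With protein-coding genes only it called 8 of 49 (1350 of all 11824). Under the other alternatives with all 4 libraries it called 0 of the set and at most 49 of all tested genes, the latter when centred on the median. Between lines it called 19 of the 49 (9349 of all 14912 tested), and 14 with no block (7469 of 14912). It called 33 with protein-coding genes only and GC adjustment (9257 of all 11819), a choice added after seeing the data. When 1 library was left out and no block was used, the median fitted difference of the 49 genes between lines ran from -0.45 to 0.13. Such a fit sets 1 temperature of a line against both of the other line, so it also holds the difference between temperatures.

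Centring on the median turned the TPC-1 median difference from 0.07 to -0.024. Over both lines, the centred median was 0.19 for the 49 genes and -0.06 for all tested genes. The B-CPAP median of 0.47 became 0.24 once adjusted for GC content. The 5 genes 2-fold apart in B-CPAP became 10 with a pseudocount of 0.1, 1 with a pseudocount of 5 and 3 with a mean TPM of at least 5. They became 3 centred on the median, 3 with quantile normalization, 2 adjusted for GC content and 20 at 1.5-fold. A share of protein-coding genes, 1.13%, is given for the main setting only. The other counts thus show how the number moves with the setting, not whether it exceeds that of other genes. Without the B-CPAP library at 37 °C, and with no block, the fitted difference between temperatures was -0.54 for ASPM, -0.22 for CEP170, -0.14 for CEP350 and -0.14 for CEP55. That fit sets both 40 °C libraries against TPC-1 at 37 °C alone, so its values also hold the gap between the lines. Within each line these genes were higher at 40 °C. Signs of single genes' differences turned for 12 of 49 in each line with GC adjustment, for 14 in TPC-1 and 8 in B-CPAP with centring, and for 12 and 7 with quantile normalization.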

Other observations

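The genes whose pattern over the 4 libraries was nearest to that of ASPM, by Euclidean distance of centred log2(TPM + 1) among tested protein-coding genes, were CLGN, JMJD1C, TPR, HLTF and VPS13B. None belongs to the centrosome set. CLGN, an endoplasmic reticulum chaperone, stood at 22.2 TPM at 37 °C and 23.5 at 40 °C in TPC-1, and 3.61 and 10.3 TPM in B-CPAP. TPR, a protein of the nuclear pore basket, stood at 37.9 TPM at 37 °C and 38.97 at 40 °C in TPC-1, and 8.36 and 23.1 TPM in B-CPAP. Since the 5 were selected for their likeness to ASPM over these same libraries, their ratios, 1.84 to 2.85 in B-CPAP and 1.003 to 1.19 in TPC-1, follow from the selection and are a description only. Their GC contents lay between 37.04 and 42.4%.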
